A study of Mus musculus with 23 samples.

Results

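The genes described here are 34 listed targets and partners of p53, the transcription factor encoded by Trp53 that answers DNA damage and other stress. Each gene was represented by the probe set with the highest mean over all arrays. Of the 34, 32 were measured among 18193 genes, while Trp53 itself and Bax were not analysed here. Each array measured the RNA of 1 of 8 subclones of LLC (Lewis lung carcinoma), a line of mouse lung tumour cells that can be grafted into mice. Per the labels, each subclone was grown out of the parental cells by limiting dilution, so each is a single clonal line and clone and subclone cannot be told apart. There were 3 arrays for each of subclones 2, 3, 18, 19, 23, 24 and 28 and 2 for subclone 6, labelled as biological replicates. All were kept in DMEM with 10% FBS and Pen/Strep and then spent 24 h in serum-free FreeStyle medium before RNA extraction. No group received a drug or a damaging agent, and the labels name no parental sample and no p53 genotype. The 23 arrays carried 45101 probe sets, and array medians lay between 40.83 and 45.74 intensity units.

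In cells with working p53, stress stabilises the protein, which then binds response elements near its target genes and raises their transcription. Its targets stop the cell cycle, drive cell death, repair DNA and adjust metabolism, and one of them, Mdm2, encodes the ubiquitin ligase that returns p53 to a low level. Many lung tumours carry mutations in the gene. Several targets also answer to other regulators, so a target's RNA level is not a measure of p53 activity. The p53 protein was not measured here. The arrays measure bulk RNA, in which fewer cells of a type and less RNA per cell cannot be told apart.

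The response element joins 2 copies of a p53 decamer (its 10-base consensus, which reads the same on both strands). Promoter windows of RefSeq, build GRCm38.p6, were searched from 250 bases before to 50 bases after each gene start. Of the measured members, 24 had a window, and they had 37 windows between them. An element with at most 2 mismatches and at most 1 base between the decamers lay in windows of 3 members, Cdkn1a, Ccng1 and Gtse1, and in 0.682% of all 32851 windows. A single decamer with no mismatch lay in 11 of the 37 member windows and in 8.36% of all windows. The elements are shown because these 3 genes had their highest means in different subclones, and Sesn3 and Plk2 because they stood farthest apart in subclone 18. Below, the Cdkn1a sequence is chr17:29090729-29090978 on the plus strand, the 250 bases before 1 of its annotated starts. The Ccng1 sequence is chr11:40755287-40755536 on the minus strand, also the 250 bases before its start. For Gtse1 only the element is given, chr15:85859945-85859964 on the plus strand, whose first base lies 1 base before 1 of its annotated starts. Capitals mark the element, which had 1 mismatch in each. The windows of other starts, chr17:29093519-29093818 for Cdkn1a and chr15:85859457-85859756 for Gtse1, held no element.
Cdkn1a: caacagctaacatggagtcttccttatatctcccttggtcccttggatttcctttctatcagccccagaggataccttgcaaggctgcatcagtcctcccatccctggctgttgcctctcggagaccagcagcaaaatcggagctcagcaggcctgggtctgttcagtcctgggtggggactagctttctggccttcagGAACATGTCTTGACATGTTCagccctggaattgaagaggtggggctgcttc
Ccng1: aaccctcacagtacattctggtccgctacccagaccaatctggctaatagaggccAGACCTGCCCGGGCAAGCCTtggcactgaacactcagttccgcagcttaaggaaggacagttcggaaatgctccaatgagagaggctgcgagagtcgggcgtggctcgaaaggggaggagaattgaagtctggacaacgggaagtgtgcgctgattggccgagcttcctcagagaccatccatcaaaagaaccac
Gtse1: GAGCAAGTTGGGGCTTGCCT
For Sesn3 (chr9:14276051-14276300, plus strand) and Plk2 (chr13:110394794-110395043, plus strand) the 250 bases before the start are given, with every CG dinucleotide in capitals.
Sesn3: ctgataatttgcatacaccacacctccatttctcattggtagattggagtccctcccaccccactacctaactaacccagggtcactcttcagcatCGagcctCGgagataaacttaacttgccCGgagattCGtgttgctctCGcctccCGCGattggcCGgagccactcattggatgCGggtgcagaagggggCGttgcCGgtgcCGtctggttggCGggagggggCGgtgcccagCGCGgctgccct
Plk2: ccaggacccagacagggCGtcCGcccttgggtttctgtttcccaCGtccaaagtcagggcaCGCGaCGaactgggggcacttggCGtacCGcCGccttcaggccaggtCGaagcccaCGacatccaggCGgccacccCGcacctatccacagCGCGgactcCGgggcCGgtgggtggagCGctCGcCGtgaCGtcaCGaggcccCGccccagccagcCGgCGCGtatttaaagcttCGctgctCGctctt
The Sesn3 stretch holds 16 CG and the Plk2 stretch 28, where the median of all windows is 6. At least 16 CG were found in 25.4% of all windows and at least 28 in 7.61%. Neither window held the element, which says only that those letters are not there.

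Values are log2(intensity + 16), so the floor is near 4, folds are on this scale, and the change of a dim gene is understated. All but 1 of the measured members had a mean of at least 6, against 58.5% of all genes. The exception was Perp, a membrane protein of desmosomes, whose subclone means lay between 4.11 and 4.39. Its moderated F-test over the 8 subclones gave an adjusted p of 0.0972 (limma, Benjamini-Hochberg over all genes). The other 31 of 32 members (96.9%) passed that test at 0.05, and so did 61.8% of all genes. Among genes with a mean of at least 6 the share was 91.4%, so passing it sets the members little apart. A wider difference was less common. The subclone means spread over at least 1 log2 unit, a doubling, for 10 of 32 members (31.2%), against 12.7% of all genes and 18.3% of those with a mean of at least 6. They were Sesn3, Ephx1, Gadd45a, Pmaip1, Btg2, Plk2, Fas, Cd82, Trp53inp1 and Gtse1. Just inside that threshold were Gtse1 with 1.08 and Trp53inp1 with 1.11, and just outside it Mdm2 with 0.99 and Plk3 with 0.97. A dimmer Mdm2 probe set, with a mean of 9.68, had a range of 1.17.

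**Figure D1:**
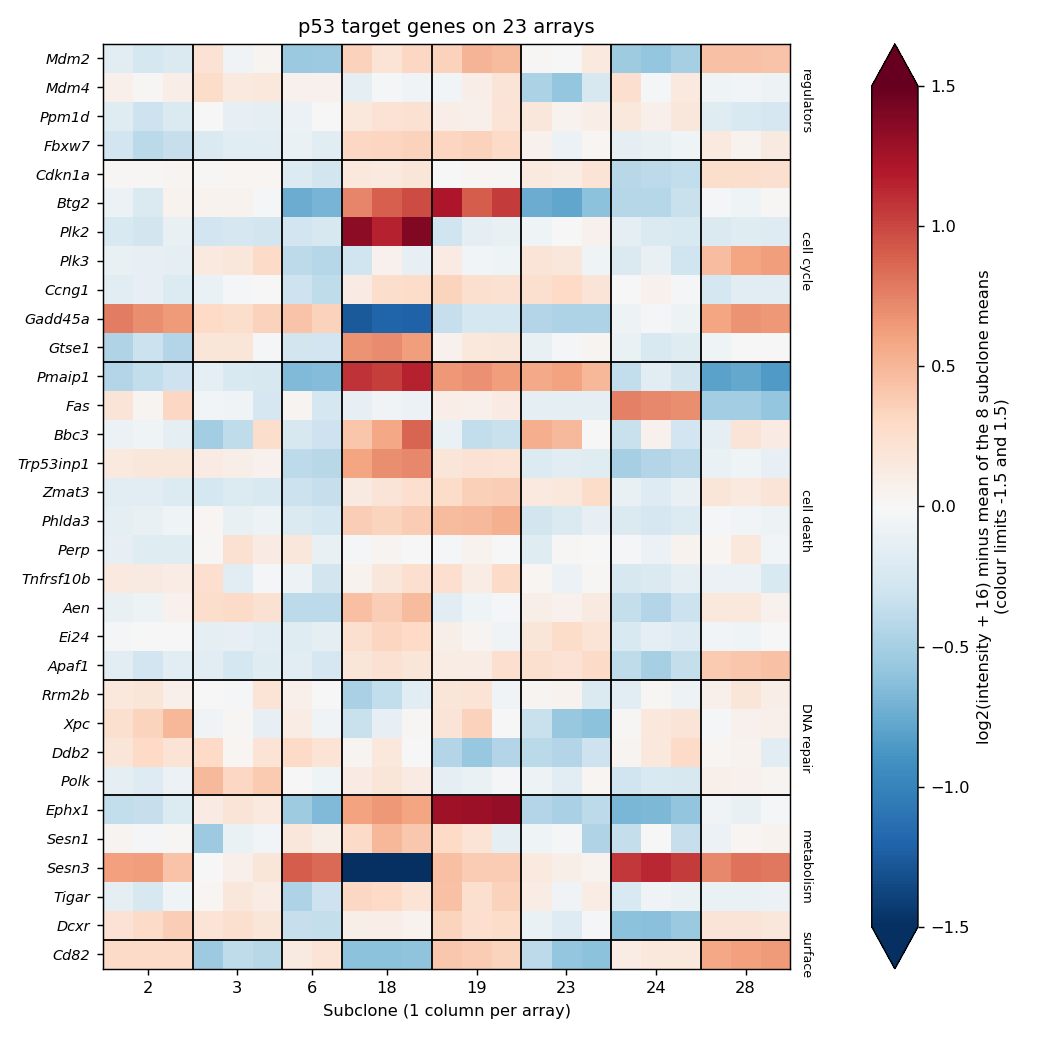
Each row is a measured p53 target, grouped by role, and each column 1 of the 23 arrays, ordered by subclone. Colour gives the array's log2(intensity + 16) minus the gene's mean over the 8 subclones. Sesn3 is far below its mean on the 3 arrays of subclone 18, and most genes of the death group are above their means there.

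Subclone 18 held the most members above the mean of the other 7 subclones. There 22 members were higher and 4 lower at an adjusted p under 0.05, against 21.5% of all genes higher and 21.6% lower. The median difference was 0.23 over the members and 0.006 over all genes. With a size of at least 0.5, 7 members were higher (4.18% of all genes) and 3 lower (6.02%). In subclone 19, 18 members were higher and 5 lower, with 24.2% of all genes higher and 17.7% lower, and the median member difference was 0.17. The 5 lower became 3 on leaving out any of 7 single arrays or subclone 18 from the mean of the others, and 2 with the mean over all probe sets of a gene. The 5 and 1 members past 0.5 in subclone 19 compare with 4.33% and 3.15% of all genes. Brighter genes passed more often: of genes with a mean of at least 6, 32.5% were higher in subclone 18 and 37.4% in subclone 19. Lower were 32.8% and 25.7% of them.

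Subclones 6 and 24 leaned the other way. In subclone 6, 4 members were higher and 18 lower (13.8% and 10.1% of all genes), with a median of -0.25, against 0.018 over all genes. The 4 higher became 2 with the mean over all probe sets. At a size of at least 0.5 it had 1 higher and 4 lower, beside 2.37% and 0.945% of all genes. In subclone 24, 5 were higher and 19 lower (15.2% and 17.1%), with a median of -0.21, against -0.012 over all genes. There the 5 higher became 3 with the mean over all probe sets. At a size of at least 0.5 it had 2 higher and 4 lower, beside 1.51% and 3.3% of all genes. Of genes with a mean of at least 6, 16.1% were lower in subclone 6 and 25.4% in subclone 24, and 20% and 24.2% were higher.

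The remaining subclones were mixed. Subclone 2 had 8 members higher and 14 lower (15.4% and 20.5% of all genes), and with all values centred by chromosome 9 were lower instead of 14. Subclone 3 had 10 higher and 7 lower (19.4% and 18.6%). Subclone 23 had 9 higher and 11 lower (20.2% and 17.4%), and subclone 28 had 11 higher and 6 lower (19.2% and 18.2%). At a size of at least 0.5, subclone 2 had 2 higher and 0 lower (2.06% and 3.62% of all genes), and subclone 3 had 0 and 1 (3.19% and 2.62%). By the same rule subclone 23 had 1 higher and 5 lower (2.84% and 3.34%), and subclone 28 had 4 and 2 (4.17% and 2.58%). Of genes with a mean of at least 6, 23.5% were higher and 31.6% lower in subclone 2, and 29.8% and 28.9% in subclone 3. These shares were 32.4% and 25.7% in subclone 23, and 29% and 28.5% in subclone 28. The member medians in these 4 subclones lay between -0.11 and 0.03. All 8 comparisons share arrays, because each subclone also enters the mean that the others are set against. Labels do not say whether replicates came from separate cultures, so the p-values measure only the spread between these samples, which may be technical.

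**Figure D2:**
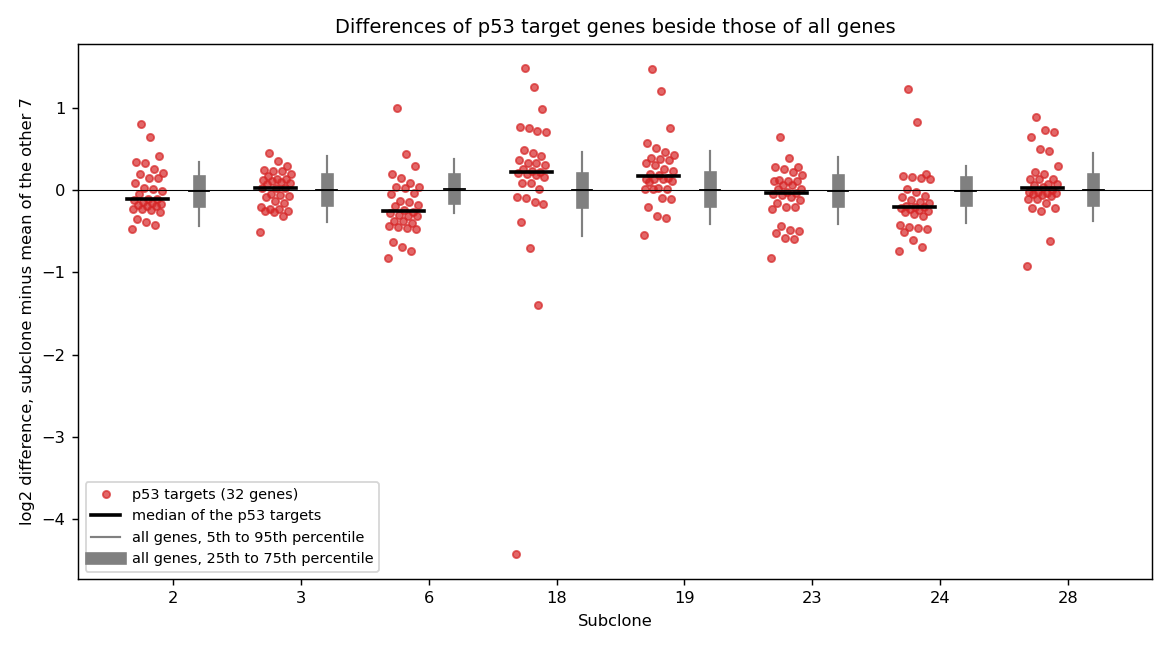
Each point is a measured p53 target, placed by its log2 difference between the subclone named on the axis and the mean of the other 7. Black bars are the medians of the 32 targets, and the grey box and line beside them span the percentiles of all genes that the legend names. Points of subclones 18 and 19 lie mostly above 0 and those of subclones 6 and 24 mostly below, and Sesn3 in subclone 18 is the lowest point.

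The best known members are given here array by array, a choice made after their values had been seen. Cdkn1a encodes p21, the inhibitor of cyclin-dependent kinases that carries out the p53 cell cycle arrest. It had 11.69, 11.72 and 11.74 in subclone 24, against 11.83 to 12.37 (median 12.14) on the other 20 arrays, a difference of -0.45 ± 0.025 (SE, adjusted p = 1.06e-10, limma). All 3 arrays of subclone 24 lay below every other array. The highest values were 12.37, 12.37 and 12.35 in subclone 28, against 11.69 to 12.31 (median 12.13) elsewhere, and the difference was 0.29 ± 0.025 (adjusted p = 2.97e-08). Its whole range over subclone means was 0.64, so it was abundant in all 8 subclones and varied by less than many dimmer members. Subclones 18 and 23 could not be ordered, with a pair difference of 0.01 (adjusted p = 0.931).

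Mdm2, the ubiquitin ligase and feedback inhibitor of p53, had 10.41 and 10.42 in subclone 6, and 10.43, 10.38 and 10.47 in subclone 24. It had 11.31, 11.47 and 11.44 in subclone 19, and 11.4, 11.4 and 11.39 in subclone 28. These 2 low and 2 high subclones did not overlap. Against the mean of the others, Mdm2 differed by -0.63 ± 0.057 in subclone 6 (adjusted p = 2.66e-07) and by -0.61 ± 0.048 in subclone 24 (adjusted p = 1.05e-08). The differences were 0.51 ± 0.048 in subclone 19 (adjusted p = 7.14e-08) and 0.5 ± 0.048 in subclone 28 (adjusted p = 1.18e-07). Within each end no order could be given: subclone 6 minus 24 was -0.01 (adjusted p = 0.923) and subclone 19 minus 28 was 0.01 (adjusted p = 0.917). Subclone 18 was also higher, by 0.33 ± 0.048 (adjusted p = 1.16e-05), and could not be ordered against the high end. There, subclone 18 minus 19 was -0.16 (adjusted p = 0.0623) and subclone 18 minus 28 was -0.14 (adjusted p = 0.079). Mdm4, the related protein that blocks p53 at its target genes, was high in every subclone and lowest in subclone 23, with 9.31, 9.2 and 9.54 and a difference of -0.49 ± 0.06 (adjusted p = 2.2e-06). Centred by chromosome, that difference was -0.08 and did not pass. Ppm1d, a phosphatase that switches off the damage signal, varied by 0.44, and Fbxw7, which selects proteins for a ubiquitin ligase, by 0.67. Fbxw7 was lowest in subclone 2, where its 3 arrays lay below all others, as did those of Gtse1 (3.21% of all genes did so).

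**Figure D3:**
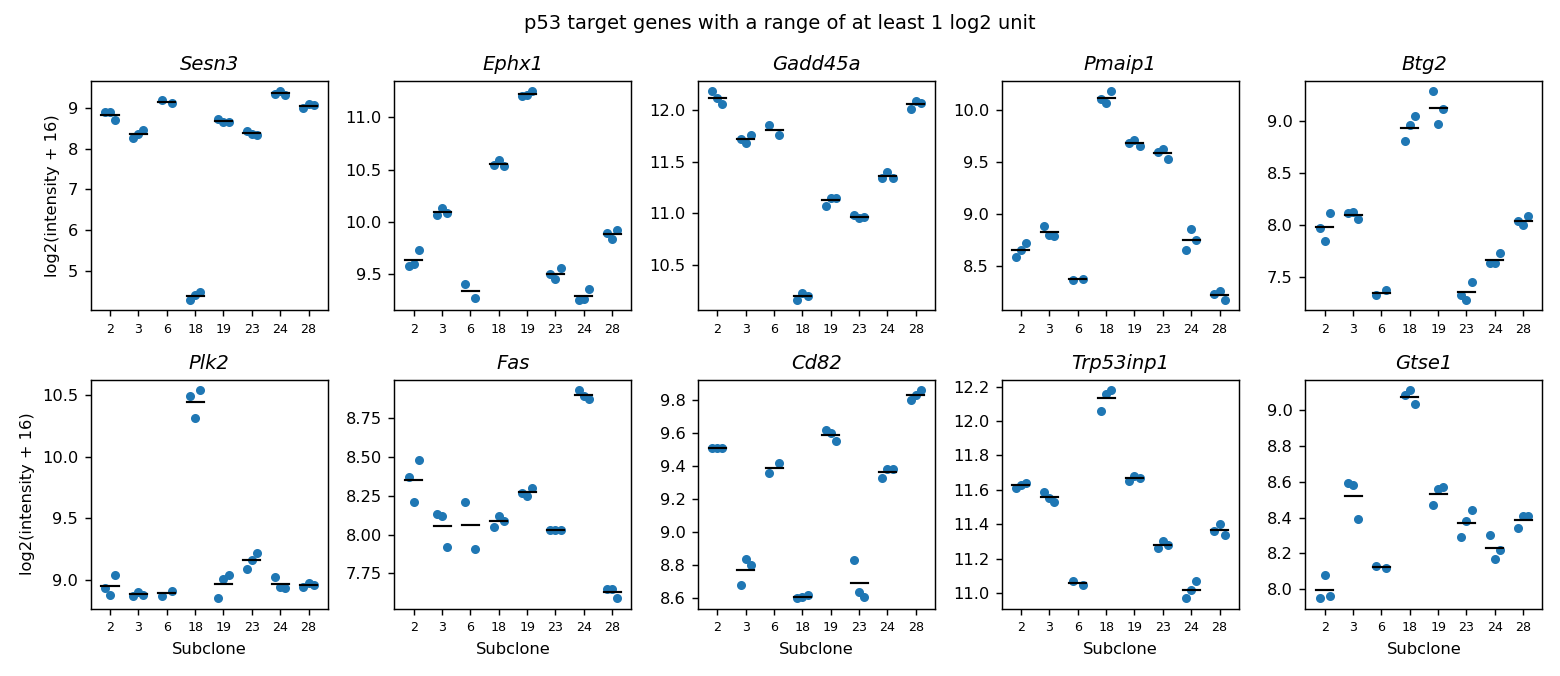
Points are single arrays of the p53 targets whose subclone means spread over at least 1 log2 unit, with subclones on the horizontal axis and log2(intensity + 16) on the vertical axis. Horizontal bars mark subclone means, and each of the 10 panels has a vertical scale of its own. Subclone 18 stands apart in the panels of Sesn3, Gadd45a, Pmaip1, Plk2, Trp53inp1 and Gtse1.

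Among the other cell cycle genes, Plk2, a polo-like kinase of the stress response, was set apart in subclone 18 alone. It had 10.49, 10.31 and 10.54 there, against 8.85 to 9.22 (median 8.94) on the other 20 arrays. The difference of 1.48 ± 0.046 was 2.79-fold (adjusted p = 8.07e-15). Subclone means of the other 7 lay between 8.88 and 9.16. Plk3, a relative, was highest in subclone 28 with a mean of 7.68 and lowest in subclone 6 with 6.71.

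Btg2, an antiproliferative cofactor of mRNA deadenylation, had 9.28, 8.97 and 9.11 in subclone 19 and 8.8, 8.96 and 9.04 in subclone 18. It had only 7.32 and 7.37 in subclone 6 and 7.32, 7.28 and 7.45 in subclone 23. The 2 high subclones overlapped each other, as did the 2 low ones, and the low pair lay more than 1 log2 unit below the high pair. Differences from the mean of the others were 1.2 ± 0.06 in subclone 19 (adjusted p = 1.48e-11) and 0.99 ± 0.06 in subclone 18 (adjusted p = 1.11e-10). They were -0.82 ± 0.072 in subclone 6 (adjusted p = 1.44e-07) and -0.82 ± 0.06 in subclone 23 (adjusted p = 3.27e-09). Subclone 18 minus 19 was -0.18 (adjusted p = 0.0787), so those ends have no order.

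Gadd45a, a stress protein that binds PCNA and p21, went against the 5 cell cycle genes that were higher in subclone 18. It had 10.16, 10.22 and 10.2 there, against 10.95 to 12.18 (median 11.7) elsewhere, and all 3 arrays lay below every other array. The difference of -1.4 ± 0.032 made it 2.64-fold lower (adjusted p = 1.17e-16). It was highest in subclone 2, with 12.18, 12.12 and 12.06 (0.8 ± 0.032, adjusted p = 1.27e-12), and in subclone 28, with 12.01, 12.09 and 12.07 (0.73 ± 0.032, adjusted p = 2.81e-12). Subclones 2 and 28 overlapped, and their pair difference was 0.06 (adjusted p = 0.308). Gadd45a also answers to stress signals that do not pass through p53.

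Gtse1, a microtubule-binding protein of G2 that counteracts p53, had 9.08, 9.11 and 9.03 in subclone 18, against 7.95 to 8.59 (median 8.36) on the others. It was 0.77 ± 0.044 higher there (adjusted p = 4.82e-11). In subclone 2 it had 7.95, 8.08 and 7.96, a difference of -0.47 ± 0.044 (adjusted p = 8.74e-08). Ccng1, cyclin G1, was among the brightest members, and its means varied by only 0.6, with both arrays of subclone 6 below all others. All 3 genes with an element in their windows were higher in subclone 18 (21.5% of all genes) and lower in subclone 6 (10.1%). Cdkn1a, Ccng1 and Gtse1 differed by 0.19, 0.25 and 0.77 in subclone 18, and by -0.28, -0.38 and -0.32 in subclone 6. Their highest means lay apart, that of Gtse1 in subclone 18 and that of Cdkn1a in subclone 28. Ccng1 had its highest means, 12.67, 12.65 and 12.63, in subclones 19, 23 and 18. For Ccng1 this depended on the probe set: of its dimmer ones, that with a mean of 11.16 was highest in subclone 19 (11.44). The one with a mean of 10.38 was highest in subclone 3 (10.85).

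Of the 11 measured genes of cell death, 9 were higher and 0 lower in subclone 18, beside 21.5% and 21.6% of all genes. In subclone 19, 6 were higher and 1 lower (24.2% and 17.7% of all genes). In subclone 24, 1 was higher and 8 lower (15.2% and 17.1%), and in subclone 6, 0 were higher and 7 lower (13.8% and 10.1%). The shares among brighter genes, given above, are larger. Pmaip1 encodes Noxa, a BH3-only protein that neutralises the survival protein MCL1. It had 10.11, 10.07 and 10.18 in subclone 18, against 8.18 to 9.71 (median 8.77) on the other 20 arrays. The groups did not overlap, and the difference was 1.25 ± 0.039 (adjusted p = 9.81e-15). Subclones 19 and 23, with means of 9.68 and 9.59, came next and differed by 0.1 (adjusted p = 0.175). The lowest arrays were 8.23, 8.26 and 8.18 of subclone 28, against 8.37 to 10.18 (median 8.88) elsewhere, with a difference of -0.92 ± 0.039 (adjusted p = 2.08e-12). Noxa RNA was therefore lowest in the subclone with the most p21 RNA. Bbc3, or Puma, the other BH3-only target, was also highest in subclone 18 (0.72 ± 0.14, adjusted p = 0.000264), with a larger residual SD of 0.24.

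Trp53inp1, a nuclear and autophagy protein induced by stress, had 12.06, 12.16 and 12.18 in subclone 18, against 10.97 to 11.68 (median 11.38) on the others. It was 0.76 ± 0.029 higher (adjusted p = 1.17e-13). Its lowest means, 11.02 in subclone 24 and 11.06 in subclone 6, differed from each other by a pair value of 0.04 for subclone 6 minus 24 (adjusted p = 0.543). Fas, the death receptor, followed another order. It had 8.93, 8.89 and 8.87 in subclone 24, against 7.59 to 8.48 (median 8.1) on the others, and was 0.83 ± 0.055 higher there (adjusted p = 1.25e-09). In subclone 28 it had 7.65, 7.65 and 7.59, against 7.91 to 8.93 (median 8.17) elsewhere, a difference of -0.62 ± 0.055 (adjusted p = 3.93e-08). Fas was thus highest in a subclone where 8 other death genes were lower.

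By their chosen probe sets, the remaining death genes varied by less than 1 log2 unit. Aen, a nuclease of apoptosis, was highest in subclone 18 with a mean of 9.62, and all 3 arrays lay above every other array. Of its dimmer probe sets, those with means of 7.71 and 6.78 were also highest there, with ranges of 1.03 and 1.33. The one with a mean of 6.37 was highest in subclone 2. Zmat3, an RNA-binding protein, and Phlda3, which restrains the kinase AKT, were set apart above all others in subclone 19. Centred by chromosome, their differences there were 0.13 and 0.28 instead of 0.38 and 0.57. Both were then higher in subclone 18, with 0.29 and 0.57. Apaf1, the scaffold of the apoptosome, was above all others in subclone 28 and below all others in subclone 24. Once centred by chromosome, its difference was 0.33 instead of 0.48 in subclone 28 and -0.18 instead of -0.47 in subclone 24. Both still passed. Tnfrsf10b, the mouse TRAIL receptor, was near the dim end, with means from 5.83 to 6.25, and Ei24, a protein of the endoplasmic reticulum, varied by 0.48.

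Sesn3 showed the widest range of any member. It encodes a sestrin, a stress protein that restrains the growth kinase complex mTORC1 and is induced by FoxO factors as well as p53. In subclone 18 it had 4.3, 4.42 and 4.48, against 8.27 to 9.4 (median 8.81) on the other 20 arrays. The difference of -4.43 ± 0.046 was 21.5-fold (adjusted p = 1.09e-21), and since the low values are near the floor its size is not firm. A second Sesn3 probe set was also lowest in subclone 18, with a mean of 4.69 against subclone means of 6.78 to 7.52. The highest arrays were 9.34, 9.4 and 9.32 of subclone 24 (1.23 ± 0.046, adjusted p = 4.74e-13). The low level in subclone 18 enters the mean that the other subclones are set against. Without subclone 18 in that mean, the difference was 0.61 in subclone 24, and in subclone 19 it was -0.17 instead of 0.46. Sesn1, the sestrin more closely tied to p53, did not share this pattern: its mean was highest, 10.07, in subclone 18.

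Ephx1, microsomal epoxide hydrolase, which detoxifies epoxides, was the metabolic gene with the next widest range. It had 11.21, 11.22 and 11.25 in subclone 19, against 9.25 to 10.59 (median 9.66) on the others. The arrays did not overlap, and Ephx1 was 2.78-fold higher (1.47 ± 0.037, adjusted p = 8.73e-16). It was also higher in subclone 18 (0.7 ± 0.037, adjusted p = 1.5e-11), though subclone 18 minus 19 was -0.67 (adjusted p = 2.14e-09). Its lowest means, 9.29 in subclone 24 and 9.33 in subclone 6, could not be ordered, with a pair difference of 0.05 for subclone 6 minus 24 (adjusted p = 0.605). Tigar, which lowers glycolytic flux, had both arrays of subclone 6 below all others, and its range was 0.72. Its dimmer probe sets had their lowest means elsewhere, 6.77 in subclone 24 and 5.36 in subclone 23. Dcxr, a carbonyl reductase, was lowest in subclone 24 with a mean of 9.07 and next lowest in subclone 6 with 9.32.

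Cd82 encodes a tetraspanin of the cell surface known as a metastasis suppressor. It had 9.8, 9.83 and 9.86 in subclone 28, against 8.6 to 9.62 (median 9.35) on the others, and was 0.7 ± 0.039 higher (adjusted p = 7.45e-11). It had 8.6, 8.61 and 8.62 in subclone 18, which overlapped the arrays of subclone 23, and the difference was -0.7 ± 0.039 (adjusted p = 3.47e-11). The means of Cd82 fell into a low group of subclones 18, 23 and 3, between 8.61 and 8.77, and a high group of the other 5, between 9.37 and 9.83.

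Of the 4 measured DNA repair genes, 1 was higher and 1 lower in subclone 18, close to the 21.5% and 21.6% of all genes. In subclone 6, 1 was higher and 0 lower (13.8% and 10.1% of all genes). Rrm2b, a subunit of ribonucleotide reductase that supplies nucleotides for repair, was lowest in subclone 18 with a mean of 8.41. Ddb2 and Xpc recognise lesions in nucleotide excision repair. Ddb2 was lowest in subclone 19 with a mean of 6.29, next to subclone 23 with 6.38, and Xpc was lowest in subclone 23 with 7.21. Polk, a polymerase that copies past lesions, was highest in subclone 3 with 9.91.

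Counted by arrays that lie beyond every other array, 5 members stood above all others in subclone 18 (4.97% of all genes) and 2 below (6.28%). The 5 were Pmaip1, Plk2, Trp53inp1, Aen and Gtse1, and the 2 were Sesn3 and Gadd45a. Above all others were also 4 in subclone 28 (3.95%), namely Cdkn1a, Plk3, Cd82 and Apaf1, and 3 in subclone 19 (5.46%), namely Ephx1, Zmat3 and Phlda3. Once centred by chromosome, Zmat3 and Phlda3 were higher in subclone 18 than in subclone 19. Below all others were 4 in subclone 6 (0.561%), namely Plk3, Ccng1, Zmat3 and Tigar. A further 4 were below all others in subclone 24 (2.66%), namely Cdkn1a, Polk, Apaf1 and Dcxr, while Fas and Sesn3 were above all others there (1.68%). Subclone 28 had Pmaip1 and Fas below all others (3.58%), subclone 19 Ddb2 (3.22%) and subclone 23 Mdm4 (2.9%), which did not pass once centred, and subclone 3 had Polk above all others (3.31%). By means alone, subclone 18 was highest of the 8 for 10 members (16% of all genes) and lowest for 4 (16.1%). Subclones 6 and 24 were lowest for 9 members each, where they were lowest for 7.83% and 11.9% of all genes. Subclone 6 has 2 arrays and the others 3, and fewer arrays are easier to separate.

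The 28 pairs of subclones do not lean on the mean of the others. At an adjusted p under 0.05 and a difference of at least 0.5, a pair called from 1 to 18 members (median 9), where 3.47% to 16.6% of all genes were called (median 11.1%). Subclones 18 and 24 differed most, in 18 members, of which 14 were higher in subclone 18 and 4 in subclone 24 (11.2% of all genes). Subclones 6 and 18 differed in 16, with 3 higher in subclone 6 and 13 in subclone 18 (14.1%). Subclones 6 and 24 differed in 1 member, beside 6.08% of all genes: Fas, with subclone 6 minus 24 at -0.84 (adjusted p = 4.05e-07). Between subclones 18 and 19, both with many members raised, 9 were called, 5 higher in subclone 18 and 4 in subclone 19 (12.1%).

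**Figure D4:**
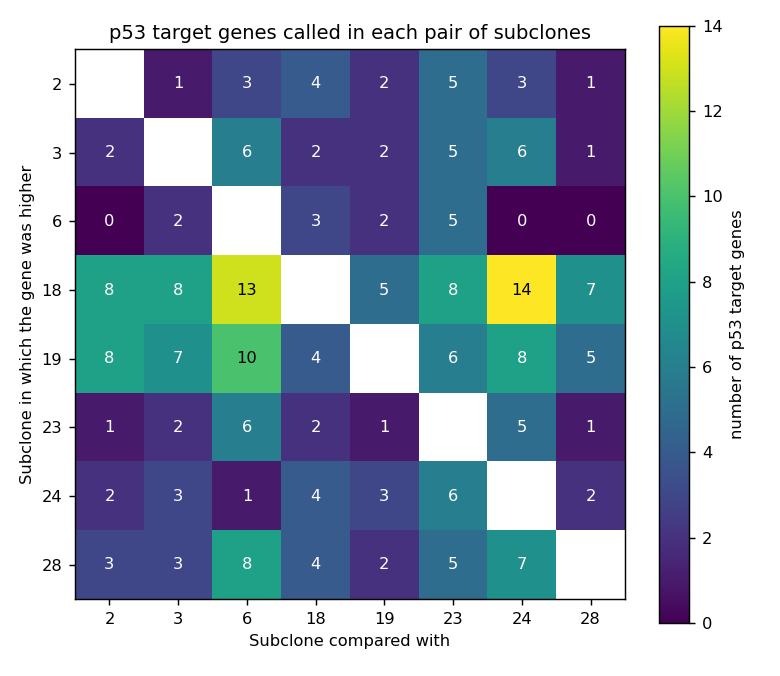
Each cell gives, by number and colour, how many p53 targets were called higher in the subclone of its row than in the subclone of its column. The highest cell is subclone 18 over subclone 24 with 14, and the rows of subclones 18 and 19 hold the cells of 10 or more.

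Neighbours on a chromosome moved with some of these values. Over the 616 genes of chromosome 1 with a mean of at least 6, the median difference was -0.4 in subclone 23 and 0.29 in subclone 19. Btg2, Ephx1, Phlda3 and Mdm4 lie on that chromosome. With each array's values centred by chromosome, Btg2 differed by 0.91 in subclone 19 and 1.15 in subclone 18, and by -0.99 in subclone 6, so those differences kept their direction. In subclone 23 Btg2 was -0.41 instead of -0.82 and Ephx1 -0.1 instead of -0.5. Phlda3 there was 0.17, where it had been -0.23, and Mdm4 lost its call as given above. Over the 515 genes of chromosome 10, which holds Mdm2, Sesn1 and Apaf1, the median was -0.27 in subclone 24 and 0.25 in subclone 19. After centring, the Mdm2 difference of subclone 24 was -0.33, that of subclone 19 was 0.27 and that of subclone 6 was -0.55, and all 3 still passed. The Sesn1 difference of subclone 18 was 0.26 instead of 0.45 and no longer passed. Centred counts were 19 higher and 6 lower in subclone 18, and 4 higher and 18 lower in subclone 6. Whether DNA copy number differs between the subclones was not tested.

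**Figure D5:**
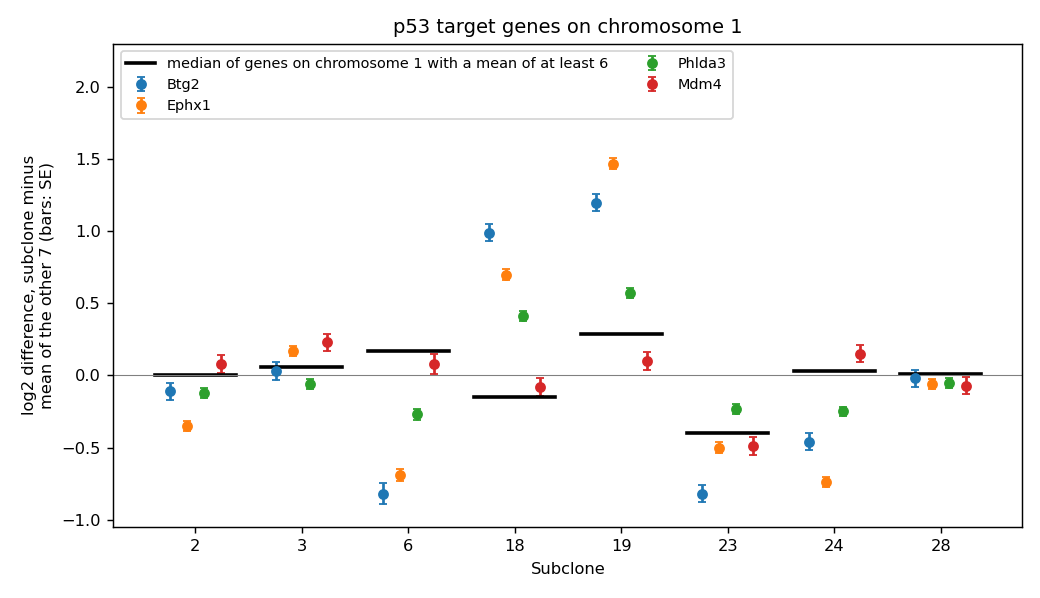
For each subclone, the points are the 4 p53 targets on chromosome 1 with SE bars and the black line the median of all chromosome 1 genes with a mean of at least 6, all as log2 difference from the mean of the other 7 subclones. In subclone 23 the 4 points and the line all lie below 0, and in subclone 18 Btg2, Ephx1 and Phlda3 lie above a line that is below 0.

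Further lists give the rest of the pathway. Of 24 measured regulators of p53, 20 passed the F-test and 4 had a range of at least 1: Chek1, Hipk2, Crebbp and Sirt1. All genes gave 61.8% and 12.7% by these rules, and those with a mean of at least 6 gave 91.4% and 18.3%. Of the 24 regulators, 21 had a mean of at least 6, and the 20 and the 4 were all among these. The regulators thus lay close to the brighter genes. In subclone 18, 12 were higher and 4 lower (21.5% and 21.6% of all genes), and in subclone 2, 3 were higher and 11 lower (15.4% and 20.5%). Hipk2, a kinase that phosphorylates p53, had its highest mean, 9.79, in subclone 23 and its lowest, 8.28, in subclone 28. Sirt1, a deacetylase of p53, was highest in subclone 18 with 9.36. Cdkn2a, whose product ARF protects p53 from Mdm2, was near the floor in all subclones, with means between 4.29 and 4.57.

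Of 21 measured further targets outside the list of 34, 17 passed the F-test, and 5 had a range of at least 1: Casp1, Thbs1, Dram1, Ckap2 and Ercc5. The shares of all genes were 61.8% and 12.7%, and those of genes with a mean of at least 6 were 91.4% and 18.3%. Of the 21 targets, 17 had such a mean. They were not the same 17 that passed, since the dim Igfbp3 passed and Pidd1 did not. Subclone 24 had 1 higher and 12 lower (15.2% and 17.1% of all genes), and subclone 6 had 3 and 7 (13.8% and 10.1%). Subclone 18 had 9 and 3 (21.5% and 21.6%), and subclone 19 had 9 and 2 (24.2% and 17.7%). Subclone 3, mixed among the listed members, had 11 higher and 3 lower here (19.4% and 18.6%). Casp1, the inflammatory caspase, had 10.21, 10.14 and 10.18 in subclone 19 (1.39, adjusted p = 2.11e-14) and 7.72, 7.89 and 7.9 in subclone 18 (-1.29, adjusted p = 2.85e-14). Thbs1, thrombospondin 1, an inhibitor of angiogenesis, was highest in subclone 18 with 7.67, 7.84 and 7.76 (1.48, adjusted p = 3.2e-13). Dram1, an autophagy protein, had a mean of 7.46 in subclone 19 and 6.21 in subclone 24.

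The genes that p53 lowers through p21 and the DREAM repressor complex run the cell cycle. All 19 of those measured passed the F-test, and 14 had a range of at least 1, beside 91.4% and 18.3% of genes with a mean of at least 6. In subclone 2, 0 were higher and 19 lower (15.4% and 20.5% of all genes), with a median of -0.92. In subclone 18, 19 were higher and 0 lower (21.5% and 21.6%), with a median of 0.34. Of genes with a mean of at least 6, 31.6% were lower in subclone 2 and 32.5% higher in subclone 18. Cdc20, an activator of the anaphase-promoting complex, had 9.81, 9.75 and 9.94 in subclone 2 (-1.27, adjusted p = 7.14e-12) and 11.39, 11.55 and 11.63 in subclone 18 (0.67, adjusted p = 1.55e-08). The subclone with the most p53 targets above the others was thus also the one with all 19 of these genes above them. In subclone 2 the p21 RNA itself was near the mean of the others, with a difference of 0.03 ± 0.025 (adjusted p = 0.412).

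Markers of other cell types were mostly dim, with bright exceptions that differed between subclones. A mean of at least 6 was reached by 0 of 5 endothelial, 2 of 7 leukocyte, 1 of 6 lung epithelial, 2 of 5 fibroblast and 3 of 5 simple epithelium genes, and Ptprc, which marks leukocytes, was near the floor. Dcn, decorin, a matrix proteoglycan of fibroblasts, had its highest mean, 12.2, in subclone 2 and its lowest, 8.59, in subclone 19, next to 8.98 in subclone 18. Pdgfra, a growth factor receptor of fibroblasts, lay between 8.07 in subclone 18 and 10.06 in subclone 28. Of the 5 fibroblast genes, 2 were higher and 2 lower in subclone 18 (21.5% and 21.6% of all genes). The higher ones were Lum (0.4, adjusted p = 0.000124) and the dim Thy1 (0.39, adjusted p = 0.0172). Cd68, a lysosomal protein of macrophages, was lowest in subclone 18, at 6.14, and highest in subclone 28, at 8.94. Of the 5 simple epithelium genes, 3 were lower and 1 higher in subclone 18 (21.6% and 21.5% of all genes). The 3 lower were the keratins Krt8, Krt18 (-0.85, adjusted p = 6.41e-14) and the dim Krt19 (-0.6, adjusted p = 0.000169). Krt8, a keratin, had a mean of 5.7 there and at least 10.32 in the other subclones, while Epcam, an adhesion protein, had its highest mean, 7.99, in subclone 18 (0.53, adjusted p = 2.75e-06). The part of these differences in the p53 target values was not tested.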

How the data were processed

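Total RNA of 23 samples, in 8 subclones, was hybridised to Affymetrix arrays. The deposited values are linear intensities, 1 per probe set and array, and how the authors computed and scaled them is not given in the sources used here. No detection calls were used, and for arrays their number limits the precision. The 64 control probe sets were removed. In the platform annotation, 34945 probe sets had 1 symbol, 932 several, and 9160 were not listed or had no symbol; 34741 were matched by Entrez identifier to a RefSeq table of GRCm38.p6. For each of 18193 genes the probe set with the highest mean was kept.

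Values were taken as log2(intensity + 16) with no filter on low values. The 23 arrays were fitted together, 1 mean per subclone, by lmFit and eBayes of limma 3.58.1 (R 4.3.3), which left 15 residual degrees of freedom. It gave a moderated F-test over 8 subclones, 8 contrasts of a subclone with the mean of the 7 other subclone means, and 28 pair contrasts. P-values were adjusted by Benjamini-Hochberg over all genes within each contrast. The fit was tested on simulated data. An adjusted p under 0.05 counts as a call. Members with a range of subclone means of at least 1 were described array by array, the others by range and counts, and of each further list up to 5 genes with the largest range were eligible. The members, lists and tests were chosen with earlier results of these data known. Alternatives changed the pseudocount (1 or 64), quantile normalization, the filter (a mean of at least 6), the probe-set rule, the replicate block, the chromosome centring and the arrays entered.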

Additional observations from a re-analysis of the deposited data

How the results depend on the processing

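With all arrays kept, the count of p53 targets past the F-test stayed at 31 and that with a range of at least 1 lay between 8 and 12 over the alternatives run. The 31 were not always the same genes: centred by chromosome, Perp passed the F-test and Sesn1 did not. With a pseudocount of 1 or 64, quantile normalization or only genes with a mean of at least 6, all counts stayed within 1.5 times the reported ones. With the mean over all probe sets of a gene, 2 members instead of 4 were higher in subclone 6, 3 instead of 5 higher in subclone 24 and 2 instead of 5 lower in subclone 19; Aen in subclone 19 turned to 0.05 and Apaf1 in subclone 3 to 0.03, neither passing. Centred by chromosome, 9 instead of 14 were lower in subclone 2; Phlda3 in subclone 23 turned to 0.17, Aen in subclone 19 to 0.08, Polk in subclone 2 to 0.02 and Apaf1 in subclone 19 to -0.06, of which Phlda3 alone passed. With subclone 18 left out of the mean of the others, a setting chosen after seeing the data, 3 instead of 5 were lower in subclone 19 and Sesn3 there turned to -0.17. In that setting 16 instead of 19 were lower in subclone 24, 16 instead of 18 in subclone 6 and 11 instead of 14 in subclone 2. Plk2, called lower in subclones 2, 3, 6, 19, 24 and 28 with subclone 18 in the mean, then passed in none of them. The cause was not tested where it is not given by the setting itself. Leaving out 1 array at a time gave 31 to 32 members past the F-test, 10 to 11 with a range of at least 1 and a median of 8.5 to 9 per pair. Members higher and then lower numbered 7 to 9 and 12 to 15 in subclone 2, 7 to 11 and 7 to 9 in subclone 3, 3 to 4 and 16 to 19 in subclone 6, and 20 to 22 and 4 to 5 in subclone 18. They numbered 16 to 19 and 3 to 5 in subclone 19, 6 to 10 and 9 to 11 in subclone 23, 4 to 6 and 16 to 20 in subclone 24, and 10 to 11 and 6 to 7 in subclone 28. The 3 lower in subclone 19 came without replicate 1 of subclone 6, 1 or 2 of subclone 28, 1 or 2 of subclone 19, 1 of subclone 23 or 3 of subclone 24. Subclone 6 then has 1 array, assumed to vary like the others. On average, replicate numbers did not pair the samples: residuals of same-numbered arrays correlated with a mean of -0.00361 (-0.401 to 0.341). Those of differently numbered arrays had a mean of 0.00199 (-0.405 to 0.401). Residuals sum to 0 within each subclone, so the 2 means are tied to each other. A mean near 0 does not exclude links between single arrays. With the replicate number as a block, 21 instead of 22 members were higher in subclone 18 and 17 instead of 18 in subclone 19, and the F-test count stayed at 31. Intensities near the floor limit what can be said of Perp and of the size for Sesn3.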
